A study of Mus musculus with 2 samples.

Results

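The genes described here set the G1 checkpoint of the cell cycle: 5 Cdk inhibitors (Cdkn1a, Cdkn1b, Cdkn2b, Cdkn2c and Cdkn2d), 2 D-type cyclins (Ccnd2 and Ccnd3), the kinases Cdk4 and Cdk6, and the retinoblastoma gene Rb1. They were taken as the probe sets whose platform annotation named 1 of these 10 genes and no other, matched by symbol or synonym. This gave 25 of 45037 probe sets, for 10 of 18193 named genes. No probe set naming several genes named any of the 10. RNA of mouse hematopoietic stem cells (HSC), the marrow cells from which every blood lineage derives, was hybridised to 2 Affymetrix 3' expression arrays. One array held cells labelled SIRT6 knockout and the other cells labelled wild type, with an age of 3 months for each. The sources used here do not state the kind of Sirt6 allele, the sort that gave the cells or any pooling of animals. With 1 array per genotype there is no replicate, so no test, SD between samples or p-value was computed, and each difference compares these 2 RNA samples.

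Entry into the cell cycle from G1 is set by D-type cyclins, which bind and activate Cdk4 and Cdk6. The active kinases phosphorylate the retinoblastoma protein, which releases E2F transcription factors to switch on genes of DNA synthesis. Proteins of the INK4 family (encoded by Cdkn2b, Cdkn2c and Cdkn2d) bind Cdk4 and Cdk6 alone, whereas those of the Cip/Kip family (encoded by Cdkn1a and Cdkn1b) bind cyclin and Cdk complexes and hold back Cdk2. HSC of adult marrow are mostly quiescent, and these inhibitors have been studied in mouse as regulators of that state.

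Values are MAS5 signals in arbitrary units, and ratios are the signal on the array labelled knockout over that on the wild-type array. A floor was set at a signal of 60.5, the median over all probe sets, because noise makes up most of a dim MAS5 value. Lower values were set to the floor, and a ratio against such a value is a lower bound. The probe set of highest mean log2 signal stood for its gene, and a gene was called measured if either array put it above the floor. Signals of different probe sets are not compared with each other, since probes differ in efficiency. The log2 ratio varied between probe sets of the same gene with an SD of 0.22 over 4632 genes, and with an SD of 0.21 over the 17 probe sets of 5 member genes that could be compared. This spread is technical and holds no error between animals.

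The arrays had median signals of 60.7 (labelled knockout) and 60.8 (wild type), and the median log2 ratio of 11547 measured genes was 0.0023. The single Sirt6 probe set read 174 on the array labelled knockout, against 124 on the wild-type array (log2 ratio 0.49). The sources used here do not state which part of the transcript it covers, so it does not check the genotype, and every direction below rests on the label. Of the defining HSC markers, Kit read 1746, Slamf1 131, Procr 563 and Mecom 817 on the array labelled knockout, against 1709 for Kit, 140.5 for Slamf1, 1033 for Procr and 1261 for Mecom on the wild-type array. All 4 were above the floor on each array.

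Of the 10 genes, 1 was higher by 1.5-fold or more on the array labelled knockout and 0 were lower by as much. Among all 11547 measured genes, 1.71% were that much higher and 2.63% that much lower. The higher gene was Cdkn1a. With the median of its 2 probe sets its log2 ratio was 0.50 and with a pseudocount of 1 floor also 0.50, and with the floor at percentile 75 it was 0.55, all under the limit of 1.5-fold. At a smaller limit, a log2 ratio of 0.32, the counts were again 1 and 0, against 7.26% and 8.56% of all measured genes. At 2-fold they were 0 and 0, against 0.398% and 0.572%. The median log2 ratio of the 10 genes was 0.05, and 5 of them had a positive and 5 a negative ratio. All 10 counted as measured, although Cdkn2b did so only through the array labelled knockout, where it was higher.

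**Figure D1:**
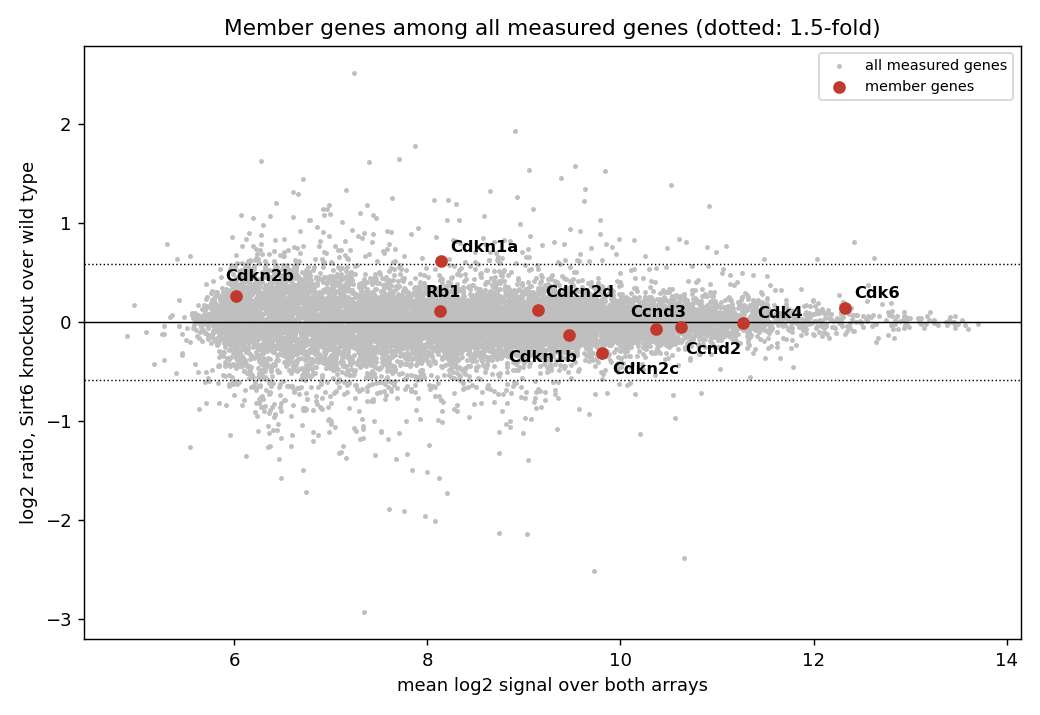
Log2 ratio of signals (array labelled Sirt6 knockout over wild type, vertical axis) against the mean log2 signal over both arrays (horizontal axis) for 11547 measured genes (grey) and the 10 member genes (red), each from its probe set of highest mean signal and with lower values set to the floor. Cdkn1a lies above the dotted line that marks 1.5-fold, and the other 9 genes lie between both dotted lines.

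Of the 25 probe sets, 21 were above the floor on both arrays, 1 on 1 array and 3 on neither. Among the 21, 12 had a positive and 9 a negative log2 ratio, the median was 0.11 and the range ran from -0.54 to 0.61. One of the 21 differed by at least 1.5-fold, a Cdkn1a probe set that was higher. Among 19881 probe sets that named 1 gene and passed the floor on either array, 1.60% were higher by 1.5-fold or more and 3.55% lower by as much. These shares take in probe sets above the floor on 1 array only, with lower values set to the floor. Their filter is thus wider than that of the 21.

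**Figure D2:**
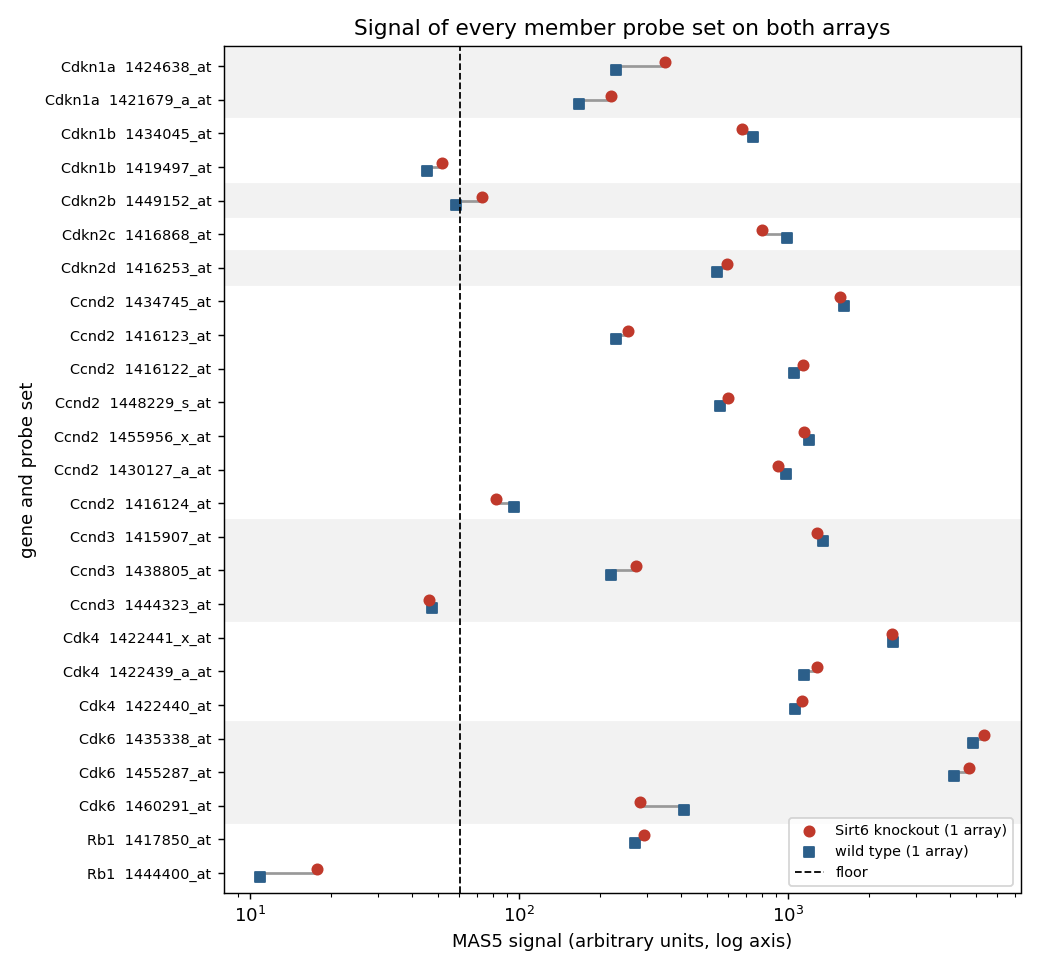
MAS5 signal (horizontal log axis, arbitrary units) of each of the 25 member probe sets on the array labelled Sirt6 knockout (red circles) and on the wild-type array (blue squares), 1 array each, with the floor as a dashed line. The widest gaps among probe sets above the floor are those of Cdkn1a, where the knockout circle lies to the right, and of the third Cdk6 probe set, where it lies to the left.

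Cdkn1a encodes p21, a Cip/Kip inhibitor that is induced by p53 and by other signals. Its probe set 1424638_at read 349.8 on the array labelled knockout, against 229 on the wild-type array, which is 1.53-fold higher (log2 ratio 0.61). Its other probe set, 1421679_a_at, read 219 (labelled knockout) against 167 (wild type), which is 1.32-fold higher (log2 ratio 0.40). Both Cdkn1a probe sets therefore pointed the same way, and the SD between their log2 ratios, 0.15, was below the 0.22 over all genes. Of the 4600 probe sets with a mean log2 signal within 0.5 of that of 1424638_at, 5.48% had a ratio at least as far from 0, and 16.8% of 5003 did so for 1421679_a_at. Of the 25 member probe sets, 1424638_at alone lay outside the central 95% of probe sets of similar signal, whose upper limit was a log2 ratio of 0.47. Such a band leaves out 5% of probe sets by construction, and 1 of 25 is near that share. Among all measured genes Cdkn1a stood at percentile 98.4 of the log2 ratios. Among the 5 member genes with several probe sets that both arrays put above the floor, Cdkn1a was the only one whose probe sets all pointed in 1 direction, as 52.4% of 4632 such genes did.

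**Figure D3:**
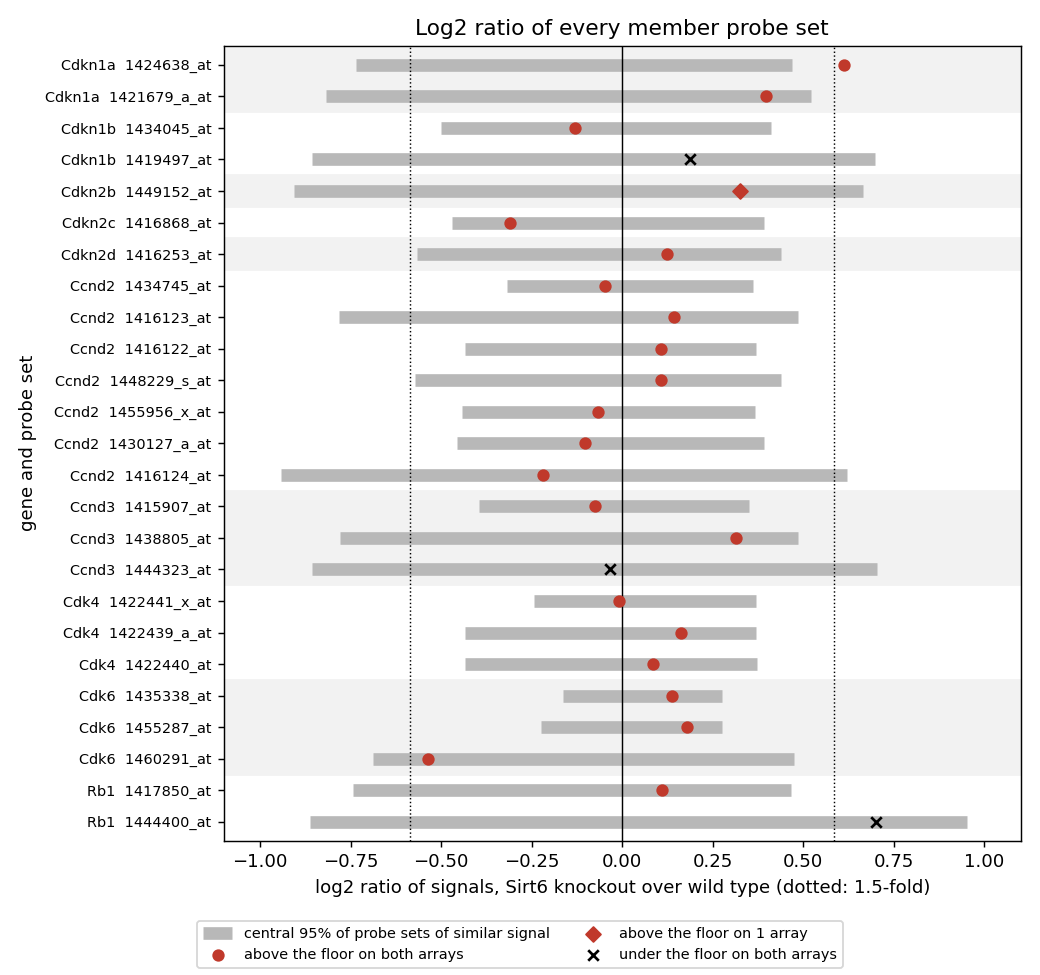
Log2 ratio (array labelled Sirt6 knockout over wild type) of each of the 25 member probe sets, without a floor, over a grey bar that spans the central 95% of all probe sets with a mean log2 signal within 0.5 of its own. Only Cdkn1a 1424638_at, at 0.61, lies outside its bar, which is near the share that such bars leave out by construction. Black crosses mark the 3 probe sets under the floor on both arrays.

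The regions before the starts of the members at either end of the range are shown for the motifs they hold. They are RefSeq sequences of the GRCm38.p6 build, 250 bases before a transcript start, and 8 of the 10 genes had an entry, with 11 windows in all. Motifs were sought on both strands, and a match is a description of letters, not a binding site. For Cdkn1a there are 2 starts. The first window (chr17:29090729-29090978, plus strand) is shown with its p53 half-sites in capitals, which begin 73 and 51 bases before the start. The second (chr17:29093519-29093768, plus strand) is shown with GC boxes (GGGCGG) and a TATA box (TATAA) in capitals, which begin 104, 46 and 25 bases before the start and do not overlap. The third sequence is a Cdkn2c window (chr4:109666757-109667006, minus strand) with its 3 GC boxes in capitals. The other Cdkn2c window (chr4:109665373-109665622, minus strand) held none of the motifs sought and is not shown.
Cdkn1a first start: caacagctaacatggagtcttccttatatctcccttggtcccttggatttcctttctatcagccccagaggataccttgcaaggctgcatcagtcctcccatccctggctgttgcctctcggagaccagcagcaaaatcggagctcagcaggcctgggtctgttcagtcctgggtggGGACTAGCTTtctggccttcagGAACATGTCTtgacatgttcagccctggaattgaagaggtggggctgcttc
Cdkn1a second start: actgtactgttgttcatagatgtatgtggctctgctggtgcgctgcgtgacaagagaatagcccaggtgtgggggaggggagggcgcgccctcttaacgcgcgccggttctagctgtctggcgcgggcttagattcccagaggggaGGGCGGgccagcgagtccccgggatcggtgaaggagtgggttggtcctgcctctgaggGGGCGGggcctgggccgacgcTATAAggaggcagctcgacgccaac
Cdkn2c: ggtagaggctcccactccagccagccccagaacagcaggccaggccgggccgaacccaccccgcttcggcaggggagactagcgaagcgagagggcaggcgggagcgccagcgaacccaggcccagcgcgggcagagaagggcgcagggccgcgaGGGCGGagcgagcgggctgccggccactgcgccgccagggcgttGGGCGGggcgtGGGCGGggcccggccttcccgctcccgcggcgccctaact

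Among all 32851 windows in the table, 7.13% held a p53 half-site, 32.7% a GC box, 22.8% a TATA box, 6.02% an E-box (CACGTG) and 4.28% an E2F-like motif (TTTNNCGC). Of the 11 member windows, 2 held a p53 half-site (Cdkn1a and Cdkn2d), 7 a GC box, 3 a TATA box, 2 an E-box and 1 (Cdk6) an E2F-like motif. The Cdk4 window held 4 E-boxes, the sequence that Myc and Max can bind, and the Cdk6 window held 1.

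Cdkn1b encodes p27, the other Cip/Kip inhibitor of the set, whose amount is known to be set largely by protein breakdown. Its probe set 1434045_at read 677 on the array labelled knockout, against 742 on the wild-type array (log2 ratio -0.13). Its other probe set, 1419497_at, was under the floor on both arrays, with 51.9 (labelled knockout) against 45.6 (wild type). The 1 Cdkn1b ratio that could be read was smaller than the SD of 0.22 between probe sets of a gene, unlike that of Cdkn1a.

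The INK4 inhibitors each had 1 probe set, so their ratios had no second reading. Cdkn2c encodes p18, an inhibitor whose loss expands HSC in mouse. It read 805 on the array labelled knockout, against 997 on the wild-type array, which is 1.24-fold lower (log2 ratio -0.31). This was the most negative of the 10 gene ratios, and 10.1% of 2859 probe sets of similar signal had a ratio at least as far from 0. Cdkn2d, which encodes p19 of the INK4 family, read 592 on the array labelled knockout, against 543 on the wild-type array (log2 ratio 0.12). Cdkn2b, which encodes p15 and is a known target of Tgf-beta signalling, read 72.8 on the array labelled knockout, against 58.1 on the wild-type array. The second value lies under the floor, so Cdkn2b was at least 1.20-fold higher (log2 ratio at least 0.27). Without the floor its log2 ratio was 0.32, and 33.5% of 6897 probe sets of similar signal lay at least that far from 0. The 3 INK4 ratios thus did not share a sign, and that of Cdkn2d was smaller than the SD of 0.22 between probe sets of a gene.

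The D-type cyclins differed little. Ccnd2, a D cyclin of hematopoietic and other cells, was read by 7 probe sets, all above the floor on both arrays, with log2 ratios from -0.22 to 0.14, 3 positive and 4 negative. Its representative, 1434745_at, read 1559 on the array labelled knockout, against 1612 on the wild-type array (log2 ratio -0.05). The probe set with the highest Ccnd2 ratio, 1416123_at, read 254 (labelled knockout) against 230.1 (wild type), and the one with the lowest, 1416124_at, read 82.0 (labelled knockout) against 95.5 (wild type). The SD over the 7 ratios was 0.13, so the representative ratio lay within the spread of its own probe sets around 0. Ccnd3, the D cyclin known for its role in lymphoid and erythroid precursors, read 1286 on the array labelled knockout, against 1356 on the wild-type array, with 1415907_at (log2 ratio -0.08). Its probe set 1438805_at read 274 (labelled knockout) against 219.98 (wild type), a log2 ratio of 0.31, and 1444323_at was under the floor, with 46.4 (labelled knockout) against 47.6 (wild type). The 2 readable Ccnd3 probe sets thus pointed in opposite directions.

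The kinases had ratios near 1 on most probe sets. Cdk4 read 2450.1 on the array labelled knockout, against 2467 on the wild-type array, with 1422441_x_at (log2 ratio -0.01). Its probe set 1422439_a_at read 1289 (labelled knockout) against 1152 (wild type), a log2 ratio of 0.16, and 1422440_at read 1125 (labelled knockout) against 1059.7 (wild type), a log2 ratio of 0.09. The suffix _x_at marks probe sets with probes that can match other sequences. The 2 Cdk4 probe sets without it were both slightly higher on the array labelled knockout, within the SD of 0.22 between probe sets of a gene. Cdk6, the kinase that mouse and human HSC need to leave quiescence promptly, read 5379 on the array labelled knockout, against 4889 on the wild-type array, with 1435338_at (log2 ratio 0.14). Its probe set 1455287_at read 4713 (labelled knockout) against 4163 (wild type), a log2 ratio of 0.18. The third Cdk6 probe set, 1460291_at, went the other way, with 283 on the array labelled knockout, against 409.8 on the wild-type array (log2 ratio -0.54), and 6.58% of 4424 probe sets of similar signal lay at least as far from 0. The SD over the 3 Cdk6 ratios, 0.40, was the largest among the 5 members with several readable probe sets. The exons that each Cdk6 probe set covers are not stated in those sources, so no single direction is given for Cdk6.

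Rb1 encodes the pocket protein that Cdk4 and Cdk6 phosphorylate. Its probe set 1417850_at read 292 on the array labelled knockout, against 271 on the wild-type array (log2 ratio 0.11). Its other probe set, 1444400_at, was under the floor on both arrays, with 17.8 (labelled knockout) against 10.9 (wild type), so its ratio is not read. Of the 10 gene ratios, 7 were within 0.22 of 0, the SD between probe sets of a gene. The 3 others were those of Cdkn1a and Cdkn2c and the bound of Cdkn2b, which was measured on the array labelled knockout alone.

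The partners of these genes in G1 were read from a list of 16 D-cyclin, inhibitor, pocket protein and E2F genes, of which 15 were measured. Of the 15, 1 was lower by 1.5-fold or more and 0 were higher by as much, with a median log2 ratio of 0.03. The lower gene was Cdkn1c, which encodes p57, the third Cip/Kip inhibitor and an imprinted gene expressed in HSC. It read 87.2 on the array labelled knockout, against 154 on the wild-type array (log2 ratio -0.82), the opposite direction to Cdkn1a. Cdkn1c had 1 probe set, with a signal not far above the floor on the array labelled knockout. Its ratio was not set against those of probe sets of similar signal. Cdkn2a, the INK4 and Arf locus, was under the floor on both arrays, with 9.38 (labelled knockout) against 8.26 (wild type).

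Ccnd1, the D cyclin that is not a member here, was lower on each of its 3 probe sets. On the array labelled knockout they read 331, 267 and 85.9, against 454, 391 and 112 for the same probe sets on the wild-type array, with log2 ratios of -0.46, -0.55 and -0.38. All 3 lay below the lowest of the 7 Ccnd2 ratios, -0.22, although no test of that difference was made.

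Among the E2F genes, E2f4, a repressor E2F, read 216 on the array labelled knockout, against 154 on the wild-type array (log2 ratio 0.49). The activators E2f1, E2f2 and E2f3 had log2 ratios of 0.17, 0.20 and -0.20, the atypical repressors E2f7 and E2f8 0.03 and 0.19, and E2f5 and E2f6 -0.01 and 0.01. The dimerisation partners Tfdp1 and Tfdp2 had 0.16 and -0.02, the pocket protein genes Rbl1 and Rbl2 -0.02 and 0.08, and the phosphatase gene Cdkn3 0.05. Apart from E2f4, these ratios, each from the probe set of highest mean signal, lay within the SD between probe sets of a gene. Other probe sets of some genes differed. Those of Tfdp2 above the floor on both arrays ran from -0.18 to 0.27, and those of E2f3 from -0.20 to 0.16. A second E2f6 probe set read 126 (labelled knockout) against 84.8 (wild type), a log2 ratio of 0.57, so E2f6 was not read alike by both of its probe sets.

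The next step of the pathway, cyclin E with Cdk2 and the proteins that break down G1 regulators, was read from 16 genes, all measured. None was at least 1.5-fold different and the median log2 ratio was -0.04. Ccne1, cyclin E1, had the largest difference, with 397 on the array labelled knockout, against 284 on the wild-type array (log2 ratio 0.48), and 175 (labelled knockout) against 122 (wild type) on its second probe set, a log2 ratio of 0.51. It was followed by Rnf123, a subunit of the ligase that breaks down p27 in G1 (0.32), Fzr1, the Cdh1 activator of the anaphase-promoting complex (0.31), and Mnat1, the assembly factor of the Cdk-activating kinase (-0.21).

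E2F target and proliferation genes, the genes that the pathway switches on, had a median log2 ratio of 0.02 over 19 measured of 20 listed. Of them, 0 were at least 1.5-fold higher and 1 was at least 1.5-fold lower, Tyms, thymidylate synthase, with 66.1 on the array labelled knockout, against 101 on the wild-type array (log2 ratio -0.62), a gene near the floor. Plk1, a mitotic kinase, had a log2 ratio of 0.31, Rrm2, of nucleotide synthesis, 0.22, and Mcm3, of the replicative helicase, 0.18. The p53 pathway list, which shares regulation with Cdkn1a, had 10 of 15 genes measured and a median of 0.04, with 1 gene at least 1.5-fold higher and 0 lower. That gene was Pmaip1, a pro-apoptotic p53 target, at 127 on the array labelled knockout, against 54.2 on the wild-type array, which lies under the floor (at least 2.09-fold higher). Zmat3 (-0.56), Gadd45a (0.28) and Ccng1 (-0.27), all p53 targets, did not share a direction.

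**Figure D4:**
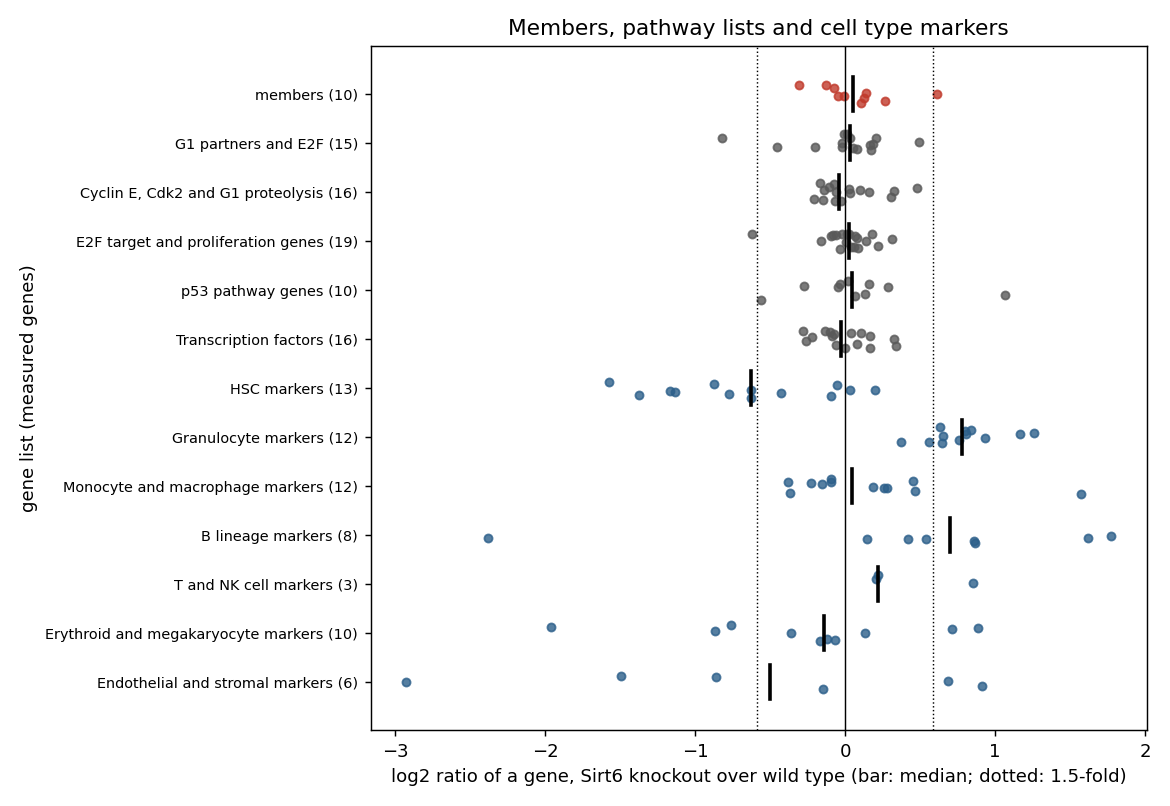
Log2 ratio (array labelled Sirt6 knockout over wild type) of each measured gene in the member set (red), in 5 pathway lists (grey) and in 7 lists of cell type markers (blue), with the number of measured genes in parentheses and each list's median as a black bar. Medians of the members and pathway lists lie between -0.04 and 0.05, and those of the marker lists between -0.63 (HSC) and 0.78 (granulocyte), with monocyte and macrophage markers at 0.05.

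Markers of some cell types also differed between the same arrays. Of 12 measured granulocyte markers of 15 listed, 10 were at least 1.5-fold higher and 0 lower on the array labelled knockout, and their summed signal there was 37246, against 23234 on the wild-type array. Of 13 measured HSC markers of 15 listed, 8 were at least 1.5-fold lower and 0 higher, with a summed signal of 9366 on the array labelled knockout, against 12259 on the wild-type array. Of 8 measured B lineage markers of 12 listed, 4 were at least 1.5-fold higher and 1, Ighm, lower. In all, 7 ratios were positive and 1 negative. Rag1 read 109.5 on the array labelled knockout, against 36.12 on the wild-type array, and Cd79a 87.67 against 38.35. Both counted as measured only through the array labelled knockout, where they were higher, so their ratios are lower bounds. Rag1 was 1 of the 4 called higher. The summed signal of the 8 measured B lineage markers was 2143 on the array labelled knockout, against 4369 on the wild-type array. Most of the wild-type sum came from Ighm, which read 707 on the array labelled knockout, against 3684 on the wild-type array. Its 7 probe sets had log2 ratios from -2.38 to -0.04. Ebf1, Ms4a1 and Rag2, also B lineage markers, were under the floor on both arrays. These B lineage genes were named after their values were seen, and all marker lists were chosen with earlier results of these data known. Of 12 monocyte and macrophage markers, all measured, 1 was higher by 1.5-fold or more and 0 were lower by as much. Their log2 ratios had a median of 0.05, with a summed signal of 4980.0 on the array labelled knockout, against 3953 on the wild-type array. Erythroid and megakaryocyte markers (10 measured of 14, 2 higher and 3 lower by 1.5-fold or more) had a median of -0.14, endothelial and stromal markers (6 of 12, 2 higher and 3 lower) of -0.50, and T and NK cell markers (3 of 11, 1 higher and 0 lower) of 0.22. The summed signals of these lists on the array labelled knockout were 7853, 1583 and 2703, against 7899, 1614 and 2185 on the wild-type array. Cxcl12, 1 of the 3 lower endothelial and stromal markers, read 57.4 on the array labelled knockout, against 461 on the wild-type array. It counted as measured only through the wild-type array, where it was higher, as did Mrc1 and C1qb of the monocyte and macrophage list. Fewer cells of a type and less RNA per cell cannot be told apart in such samples, and the part of these markers in the ratios of Cdkn1a, Cdkn1c and Ccnd1 was not tested.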

How the data were processed

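For each probe set the authors deposited 1 intensity per array on a linear scale, made with MAS5 per the submitters' processing notes. MAS5 summarises and scales each array on its own. Version, scaling target and detection calls were not stated, and the labels do not say whether animals were pooled. With 2% trimmed at each end, mean signals were 217 (labelled knockout) and 218 (wild type), so log2 signals were taken with no further normalization. Of the probe sets, 34945 named 1 gene in the platform annotation, 932 several and 9160 none, and 34741 matched a RefSeq record (GRCm38.p6), which changed 0 symbols.

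Genes were counted as higher or lower at 1.5-fold. Named were the 10 members and Sirt6 with every probe set, all measured genes of the G1 partner list, the 4 largest ratios in each other pathway list, and HSC markers. Members and lists were chosen with earlier results of these data known. Alternatives were quantile, median and loess (span 0.3) normalization, the floor left out or moved to percentile 25 or 75, adding 1 floor as a pseudocount, the median ratio of all probe sets, leaving out _s_at and _x_at probe sets, and limits of 2-fold and of 0.32 on the log2 scale. Python 3.11.15, numpy 2.4.6, pandas 2.3.3 and statsmodels 0.14.6 were used, and the procedure was tested on simulated data. The planted changes there were larger than 1.5-fold, so the simulation does not test calls near that limit. The number of arrays limits the precision.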

Additional observations from a re-analysis of the deposited data

How the results depend on the processing

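The count of members at least 1.5-fold higher was 1 (Cdkn1a) as reported and was 0 with the floor at percentile 75, with a pseudocount of 1 floor, with the median ratio of all probe sets and at a size of 2-fold. Its log2 ratio ran from 0.50 to 0.66 over the 9 alternatives of normalization, floor and probe sets, so the count turned on a ratio close to the 1.5-fold limit. The share of all measured genes that differed by 1.5-fold or more also depended on the floor: it was 5.42% higher and 3.81% lower of 18193 genes with no floor, 2.98% higher and 2.98% lower of 15481 with the floor at percentile 25, 1.15% higher and 1.29% lower of 7220 at percentile 75, and 0.98% higher and 1.39% lower of 11547 with the pseudocount. The count of members at least 1.5-fold lower was 0 under all 11 alternatives. The median log2 ratio of the members ran from -0.01 to 0.12, and no member ratio moved by more than the SD of 0.22 between probe sets of a gene. The sign of the Cdk4 ratio turned under 2 of 9 alternatives and that of Ccnd3 under 1. With the floor at percentile 75, Cdkn2b was no longer measured. The medians of the 5 pathway lists stayed between -0.04 and 0.09. No paired analysis was possible because each genotype had 1 array. Dim probe sets, such as those of Cdkn2b and Tyms, are limited by their signal near the floor.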

Other observations

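Transcription factors described as acting on Cdk inhibitor or cyclin genes were read from a list of 16 genes, all measured, with a median log2 ratio of -0.03 and 0 genes that differed by 1.5-fold or more. Gfi1, a repressor known to restrain HSC proliferation in mouse, read 713 on the array labelled knockout, against 564 on the wild-type array (log2 ratio 0.34). Myc, a growth factor-induced activator that can repress Cdkn1a, read 1656 (labelled knockout) against 1319 (wild type), a log2 ratio of 0.33. Foxo1, an activator of Cdkn1b, had a log2 ratio of -0.28 on its representative probe set and of 0.05 at the other end of its 3 probe sets above the floor, while another was under it on both arrays. Klf4 was at least 1.20-fold lower, with 55.2 on the array labelled knockout, under the floor, against 72.6 on the wild-type array.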
